A study of Mus musculus with 2 samples.

Results

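Closed CpG-rich promoters are described here: genes whose start lies in CpG-rich DNA, the kind of promoter that is usually accessible in many tissues, but where neither DNase-seq library of a mouse calf muscle had a peak. The genes were selected on 2 measures. Their highest ratio of observed to expected CpG dinucleotides, over the 500 bp on either side of any of their protein-coding starts, was 0.6 or more, and no accessibility peak of either library lay within the same distance of any such start. Of 20722 protein-coding genes on the 19 autosomes, 10940 were CpG-rich by this ratio, and 222 of these were closed in both libraries. That is 2.03% of the CpG-rich genes. Because the missing peak chose the genes, it is given below as a description and supports nothing.

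DNase-seq maps DNA that the enzyme DNase I can cut, and here it was run on nuclei of the gastrocnemius, the large muscle of the calf. Both libraries came from male B6CASTF1/J mice, the first-generation cross of C57BL/6J with CAST/EiJ, at 4 days after birth. They are labelled as biological replicates 1 and 2 of 1 untreated group, with the same donor entry, and each label speaks of 3 males. A single group allows no test between conditions. All values are levels in these 2 libraries, and genes are not replicates of a condition.

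CpG islands are stretches in which CpG is not depleted, because the DNA stays unmethylated in the germ line. Most promoters of widely expressed genes lie in them, and so do many promoters of developmental regulators, which Polycomb complexes can hold silent. A smaller set, among them genes of meiosis and of the defence against transposons, gains DNA methylation in the embryo and stays silent in body tissues. REST, a zinc finger repressor, keeps neuronal genes silent outside the nervous system through a DNA element called RE1.

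The stretches below show what such promoters look like. Each is the 200 bp just upstream of the CpG-richest start of 1 closed gene, the gene with the highest CpG ratio in its list whose stretch touches no annotated UTR, read from GRCm38 (mm10) on the strand of the gene, with every CpG in capitals. Barhl2 is a homeobox factor of the developing nervous system at chr5:106458167-106458366, minus strand. Tbx1, at chr16:18586970-18587169, minus strand, is a T-box factor of the pharyngeal arches. Wnt7b, at chr15:85580730-85580929, minus strand, is a secreted WNT ligand. Grm4, at chr17:27513407-27513606, minus strand, is a metabotropic glutamate receptor. Cacna1i, at chr15:80287038-80287237, plus strand, is a T-type calcium channel. Slc25a31, at chr3:40708655-40708854, plus strand, is the ADP/ATP carrier of male germ cells. Hist1h2ap, at chr13:21833508-21833707, minus strand, is a replication-dependent H2A gene and stands for the promoters that occur in several copies.
Barhl2: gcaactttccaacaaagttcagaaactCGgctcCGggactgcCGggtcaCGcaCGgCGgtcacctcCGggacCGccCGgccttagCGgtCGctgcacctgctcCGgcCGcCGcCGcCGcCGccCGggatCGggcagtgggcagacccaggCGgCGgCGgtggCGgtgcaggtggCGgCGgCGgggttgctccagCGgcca
Tbx1: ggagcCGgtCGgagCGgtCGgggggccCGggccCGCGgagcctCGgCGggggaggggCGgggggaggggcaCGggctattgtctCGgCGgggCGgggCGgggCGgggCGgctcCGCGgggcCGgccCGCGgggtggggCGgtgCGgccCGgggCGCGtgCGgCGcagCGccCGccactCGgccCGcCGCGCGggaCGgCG
Wnt7b: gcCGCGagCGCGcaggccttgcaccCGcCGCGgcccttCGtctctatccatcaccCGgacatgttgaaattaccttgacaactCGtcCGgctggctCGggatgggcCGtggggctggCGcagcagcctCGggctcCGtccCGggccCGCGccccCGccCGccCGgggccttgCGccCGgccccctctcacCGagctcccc
Grm4: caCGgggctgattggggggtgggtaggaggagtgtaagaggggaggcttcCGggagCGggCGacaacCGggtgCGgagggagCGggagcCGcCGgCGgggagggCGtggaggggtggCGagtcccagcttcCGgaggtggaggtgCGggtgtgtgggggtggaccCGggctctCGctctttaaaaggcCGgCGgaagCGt
Cacna1i: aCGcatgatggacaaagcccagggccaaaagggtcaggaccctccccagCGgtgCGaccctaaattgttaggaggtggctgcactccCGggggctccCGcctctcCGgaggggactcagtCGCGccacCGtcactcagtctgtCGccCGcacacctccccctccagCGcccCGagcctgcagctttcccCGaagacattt
Slc25a31: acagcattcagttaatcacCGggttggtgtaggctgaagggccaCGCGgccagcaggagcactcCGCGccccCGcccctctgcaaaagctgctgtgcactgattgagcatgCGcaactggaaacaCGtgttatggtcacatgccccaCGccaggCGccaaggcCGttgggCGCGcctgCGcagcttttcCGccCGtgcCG
Hist1h2ap: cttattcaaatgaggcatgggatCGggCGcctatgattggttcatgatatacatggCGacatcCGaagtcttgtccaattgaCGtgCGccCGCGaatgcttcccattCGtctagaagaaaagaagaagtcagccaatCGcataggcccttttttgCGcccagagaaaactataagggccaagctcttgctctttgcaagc
The Tbx1 stretch held 38 CpGs and was 88.5% G or C, the Barhl2 stretch 27 CpGs at 74.5%, the Slc25a31 stretch 17 at 64%, and the Hist1h2ap stretch 11 at 48.5%.

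The label "closed" did not hold for all members. Besides peaks, the deposited files list the bases whose cut rate passed a false discovery rate (FDR) of 0.05, a looser sign of accessibility. In 193 of the 222 genes (86.9%) no such base lay in the promoter in either library. 16 genes had some in replicate 1, 21 in replicate 2, and 8 in both. Among those 8, the gene B430218F22Rik had 639 bp in replicate 1 and 631 bp in replicate 2, and Gm26566 had 527 and 579 bp. CpG-rich genes with a peak in both libraries had medians of 820 and 939 bp and lower quartiles of 658 and 757 bp. The stretches of B430218F22Rik and Gm26566 were shorter than these quartiles. Their length still goes against the label for these 2 genes. Bases were summed over the windows of all protein-coding starts, 1 start in each of these 2 genes. The open genes had a median of 2 starts. The nearest peak lay 551 bp from B430218F22Rik in both libraries, and 616 and 596 bp from Gm26566 in replicates 1 and 2. Cntfr, a subunit of the receptor for ciliary neurotrophic factor, had 67 and 45 bp, Cbarp, a regulator of calcium channels, 22 and 62 bp, and Hoxb7, a homeobox factor, 4 and 49 bp. Footprints, bases inside an accessible site that a bound protein can shield from DNase I, were listed in 0 closed promoters in replicate 1 and in 2 in replicate 2, those of Cntfr and Gm26566. At open CpG-rich promoters 99.2% and 99.7% had one.

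The tissue was whole muscle, so fewer accessible cells of a type and less access per cell cannot be told apart. All 8 muscle markers, among them Myod1, Des and Acta1, had a promoter peak in both libraries. Of 10 markers of liver, blood, skin, neurons and germ cells, 2 had a peak in each library: the meiotic gene Sycp1 in both, the germ cell helicase Ddx4 in replicate 1 and the keratin Krt5 in replicate 2. Of 4 markers of endothelium and fibroblasts, 3 had a peak in both libraries: Cdh5, Col1a1 and Pdgfra. The endothelial marker Pecam1 had none in either. The neuronal markers Elavl3 and Neurod1 are themselves closed CpG-rich genes.

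Replicate 2 had more peaks, 123291 against 94295, and fewer closed genes. In replicate 1, 344 CpG-rich genes (3.14%) had no promoter peak, and in replicate 2, 270 (2.47%), with a mean share of 2.81% ± 0.478 (SD, n = 2). Another 48 genes had a promoter peak in replicate 1 alone, and 122 in replicate 2 alone. Peaks at these promoters were weak for their library: their median rank by the authors' cut density was at percentile 34.9 in replicate 1 and 39.3 in replicate 2, where the best promoter peaks of open genes lay at 93.2 and 94.8. A gene's place on either side of the closed boundary therefore rested on weak peaks in 170 genes.

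The share of genes without a promoter peak fell as the CpG ratio rose, up to a ratio of 0.8. Among genes with a ratio under 0.2, 92% lacked one in both libraries, and the share was 52.8% at 0.3 to 0.4 and 9.57% at 0.5 to 0.6. Within the CpG-rich genes it was 4.39% at 0.6 to 0.7, 1.94% at 0.7 to 0.8, 0.973% at 0.8 to 0.9, 1.08% at 0.9 to 1 and 1.02% at 1 or more. Above 0.8 lay 54 of the closed genes. Replicate 1 was above replicate 2 in every class.

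**Figure D1:**
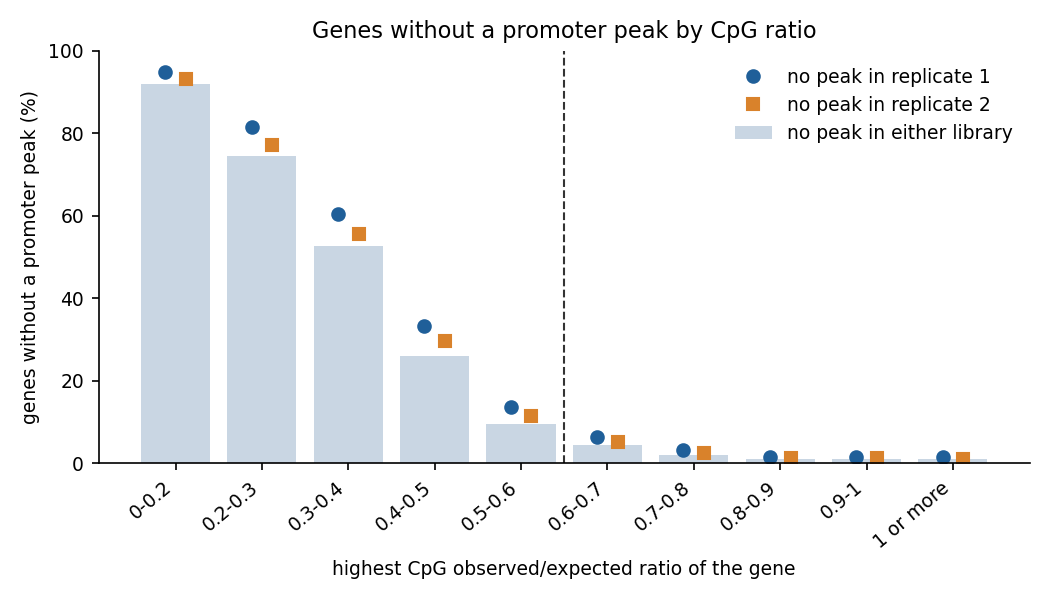
Share of autosomal protein-coding genes without a promoter peak (y axis, %) in classes of their highest CpG observed/expected ratio (x axis); bars are genes without a peak in either library, circles replicate 1 and squares replicate 2, and the dashed line marks the ratio of 0.6. The bars fall from 92% in the lowest class to 1.02% in the highest.

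At the boundaries, the closed genes with the lowest ratio were Rxfp2 and Efcab6 at 0.601 and Lin28a, also at 0.601, and the peakless genes just below included Prr36 at 0.599 and Gm13290 at 0.598. The peaks nearest to a closed gene were those of Cntfr, just past 500 bp in both libraries, then 526 and 506 bp from Cbarp, and 517 bp from Bcl6b in both. D1Pas1 had one at 517 bp in replicate 1 and at 41676 bp in replicate 2, and Srp54c at 513 and 62692 bp. Just inside the limit, and so not members, were Appl1 at 492 bp in both libraries, Wnt3 at 489 bp in replicate 1 and Osmr at 489 bp in replicate 2.

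A large part of the closed genes had a promoter sequence that occurs more than once in the genome. For each gene, the share of 31-base words in the window of 500 bp on either side of the CpG-richest start that occur once in the GRCm38 assembly, on either strand, was counted. Of the 40 CpG-rich genes with 0% unique words, 38 (95%) were closed. Of the 21 with up to 10% unique words 8 were closed (38.1%), of the 81 with 10 to 50% 8 (9.88%), of the 554 with 50 to 90% 29 (5.23%), and of the 10244 with over 90% 139 (1.36%). Thus 83 of the 222 closed genes (37.4%) had at most 90% unique words, against 5.59% of the open CpG-rich genes. The sources used here do not say how the authors treated reads that map to several places, and its part in these genes was not tested. The 139 closed genes with over 90% unique words are called unique below, and the other 83 repeated. No listed FDR base lay in the promoter in either library in 112 of the 139 unique genes (80.6%). Among the repeated genes this held for 81 of 83 (97.6%).

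**Figure D2:**
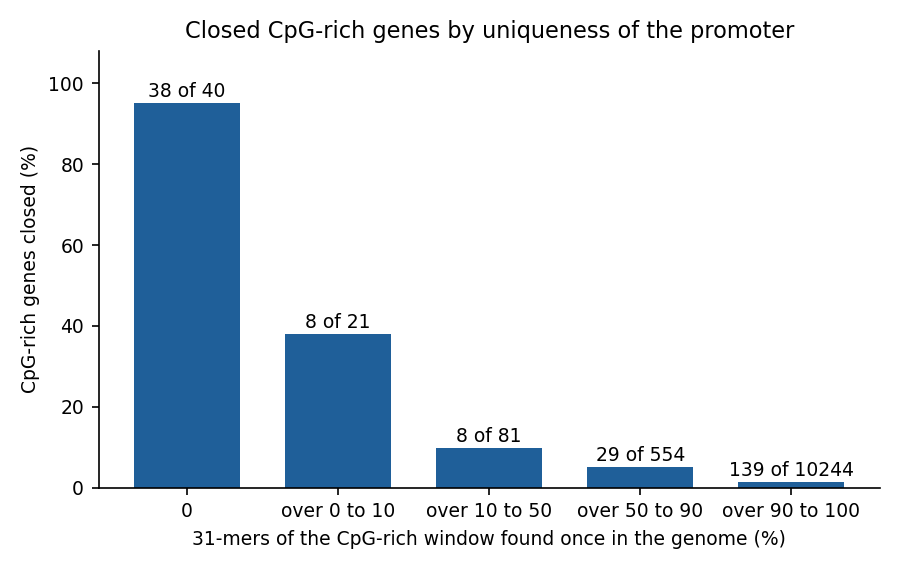
Share of CpG-rich genes closed in both libraries (y axis, %) in classes of the share of 31-base words of the promoter found once in the genome (x axis); the numbers on the bars are closed genes of all CpG-rich genes in the class. The bar falls from 95% at 0% unique words to 1.36% above 90%.

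Several repeated genes have close copies nearby. The pairs Hist1h2ap and Hist1h2br, and Hist1h2ao and Hist1h2bq, which encode H2A and H2B histones from a shared promoter, had 0% unique words, and so did Srp54b, Srp54c, Entpd4 and Entpd4b. Cntfr, with the second highest CpG ratio of all closed genes at 1.03, and BC107364 at 1.00 also had 0%. 34 of the 43 closed genes with provisional Gm or Rik names were repeated. Repeated genes lay far from any peak, at a median of 43162 bp in replicate 1 and 22192 bp in replicate 2. Their windows held coding sequence over more than 50% of their length in 20.5% of cases and led to a single-exon transcript in 28.9%, against 1.93% and 3.18% at open CpG-rich genes. For the unique closed genes these shares were 5.76% and 8.63%.

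Neighbouring closed genes formed runs. Counting CpG-rich genes in order along each chromosome, 74 closed genes lay in 24 runs of 2 or more, and 148 stood alone. The longest run held 11 genes, Pcdha1 to Pcdha9, Pcdha11 and the provisional Gm42416, over 74.9 kb on chromosome 18, with 1 unique promoter among them. The next 4 runs, on chromosomes 14 and 12, held 4 to 6 genes each and no unique promoter, for example Fam177a, Srp54b, 1700047I17Rik2 and Srp54c. The run of Hoxb8, Hoxb7 and Hoxb6 differed from these: all 3 promoters were unique, the genes lie within 16.4 kb, and each had 6 to 8 distal peaks nearby. Mpped1, Efcab6 and Sult4a1 on chromosome 15 were another run of 3 unique promoters, over 326 kb, with 2 to 7 such peaks each. Tfap2d and Tfap2b, Fev and Ihh, and Fgf3 and Fgf4 were runs of 2 unique genes. Chromosome 18 had the highest closed share, 6.33% (20 of 316), then chromosome 14 with 5.56% (22 of 396). Of these, 7 and 4 were unique.

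Which kinds of genes were closed was read from 29 gene lists, each against the 2.03% of all CpG-rich genes and the 1.36% of unique ones. Altogether 131 closed genes, 74 of them unique, fell in at least 1 list. 14 of the 27 lists with 10 or more CpG-rich genes had a closed share above 1.5 times the overall one.

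Germ cell and meiosis genes had 9 of 39 closed (23.1%), all 9 with unique promoters. Judged from replicate 1 only, 11 lacked a promoter peak, and from replicate 2 only, 14, the reverse of the order over all CpG-rich genes. Spo11, which makes the double-strand breaks that start meiotic recombination, had its nearest peak at 4921 bp in replicate 1 and 2273 bp in replicate 2. Sycp2, a component of the synaptonemal complex, lay 5076 and 4991 bp from a peak, and Hormad1, a protein of the unpaired chromosome axis, 29063 and 29023 bp. Asz1 and Mov10l1, both of the piRNA pathway that silences transposons, had no distal peak shared by the libraries within 50 kb. Slc25a31 lay 14135 bp from a peak in both libraries. Fkbp6 and Mei1, which also act in meiosis, and D1Pas1, a DEAD-box helicase of the testis, complete the list. Closed was the minority state even here: in 23 of the 39 genes both libraries had a promoter peak. Outside the list, and named after its values were seen, the closed genes include the testis poly(A) polymerase gene Papolb, the acrosomal gene Dkkl1, the heat shock factor gene Hsf5, Zfp541, the piRNA trimmer gene Pnldc1 and the testis histone pair Hist1h2aa and Hist1h2ba, whose starts are 0.306 kb apart.

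Developmental homeobox factors had 18 closed of 124 (14.5%), with 16 of 122 unique (13.1%). Barhl2, with the highest ratio of all closed genes (1.07), had peaks 681 and 518 bp from its start in replicates 1 and 2, and 30 bp of listed FDR bases in replicate 1 alone. Nkx1-1 (0.917) had its nearest peak at 4325 bp in both libraries, and Uncx (0.905), a factor of vertebrae and neurons, at 3623 and 6994 bp. Hoxd13, which patterns the digits, had a ratio of 0.905 and peaks at 4488 and 4478 bp. The other closed members were the brain, lung and thyroid factor Nkx2-1, Pou4f3, Hoxb6, Hoxb7, Hoxb8, Hoxc8, Irx4, Dlx5, Lhx5, Phox2a, Tlx1, Gsx2, Nkx2-2 and the gut factor Cdx2. Judged from replicate 1 only, 32 of its genes lacked a promoter peak and from replicate 2, 23 did, beside 344 and 270 of all CpG-rich genes, and 87 had one in both libraries.

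Among the other developmental regulators, of 68 SOX, PAX, TBX, GATA and forkhead genes 4 were closed (5.88%): Tbx1, Foxl1, Foxb1 and Foxr1. Judged from 1 library, 10 lacked a promoter peak in replicate 1 and 8 in replicate 2. Tbx1 had its nearest peaks at 1114 bp in replicate 1 and 728 bp in replicate 2. Of 37 bHLH genes 2 were closed, the midbrain factor Helt and Neurod1 (5.41%), against 5 judged from replicate 1 and 3 from replicate 2. Secreted signals of the WNT, FGF, BMP and hedgehog families had 6 of 36 closed (16.7%), all unique, against 10 judged from replicate 1 and 7 from replicate 2. Wnt7b lay 668 bp from a peak in both libraries, Fgf8 3566 bp in both, Ihh, the hedgehog ligand of cartilage, 2589 and 2536 bp, and Bmp8b 22014 and 22019 bp. Fgf3 and Fgf4 differed between libraries, with nearest peaks at 7691 and 914 bp in replicate 1 against 50246 and 27455 bp in replicate 2.

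Neuronal genes were spread over 3 lists. Receptors of neurotransmitters and neuropeptides had 5 of 48 closed (10.4%): Grm4, the serotonin receptor gene Htr6, the dopamine receptor gene Drd5 and the NMDA receptor subunit genes Grin2c and Grin3b. Grm4 lay 543 and 563 bp from a peak, and Htr6 10591 bp in both libraries. Ion channels had 5 of 76 (6.58%), among them Cacna1i, Kcnk9, Hcn2 and Cacna1d, with Cacna1i at 2283 and 924 bp from a peak. Neuron identity and synapse genes had 3 of 47 (6.38%): the RNA-binding protein gene Elavl3, Neurod1 and the kinesin gene Kif5a. Judged from replicate 1, 8 ion channel and 8 neuron identity genes lacked a promoter peak, and from replicate 2, 6 and 4. Jph3, a junctophilin of brain (ratio 1.02), and the calcium-binding protein gene Cabp7 (0.982), both outside the lists, lay 5768 and 5758 bp, and 3603 bp in both libraries, from a peak.

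Epithelial genes had 5 of 23 closed (21.7%), all unique: the zinc finger factor gene Ovol1, the transcription factor gene Grhl2, Lad1, whose protein anchors the basement membrane, the tight junction gene Cldn6 and Ap1m2, an adaptor of polarized sorting. Ovol1 lay 7035 and 6895 bp from a peak, and Grhl2 1205 and 682 bp. Clustered protocadherins, the cell-surface proteins that give neurons individual identities, had the highest share, 14 of 22 (63.6%), but only 8 of the 22 promoters were unique and 4 of those were closed. None of the 14 closed protocadherins had a shared distal peak within 50 kb. Histone cluster genes had 8 of 64 closed (12.5%), with 1 of 7 unique.

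Several lists lay near or below the overall share. Zinc finger genes named Zfp had 4 of 217 closed (1.84%) and solute carriers 4 of 192 (2.08%). Ribosomal proteins (77 CpG-rich genes), oxidative phosphorylation (65), the proteasome (40), motile cilia (35), orphan receptors (35), matrix proteases (29), blood and immune cells (16), other cadherins (16), collagens (13) and muscle excitation-contraction coupling (11) had 0 closed. Of 35 imprinted genes 1 was closed, Kcnk9. By contrast, the small liver, gut and pancreas list lay above the overall share, with 2 of 10 closed (20%). These were Nkx2-2 and Cdx2, both also homeobox genes. Judged from replicate 1, 5 genes of this list lacked a promoter peak, and from replicate 2, 2 did.

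**Figure D3:**
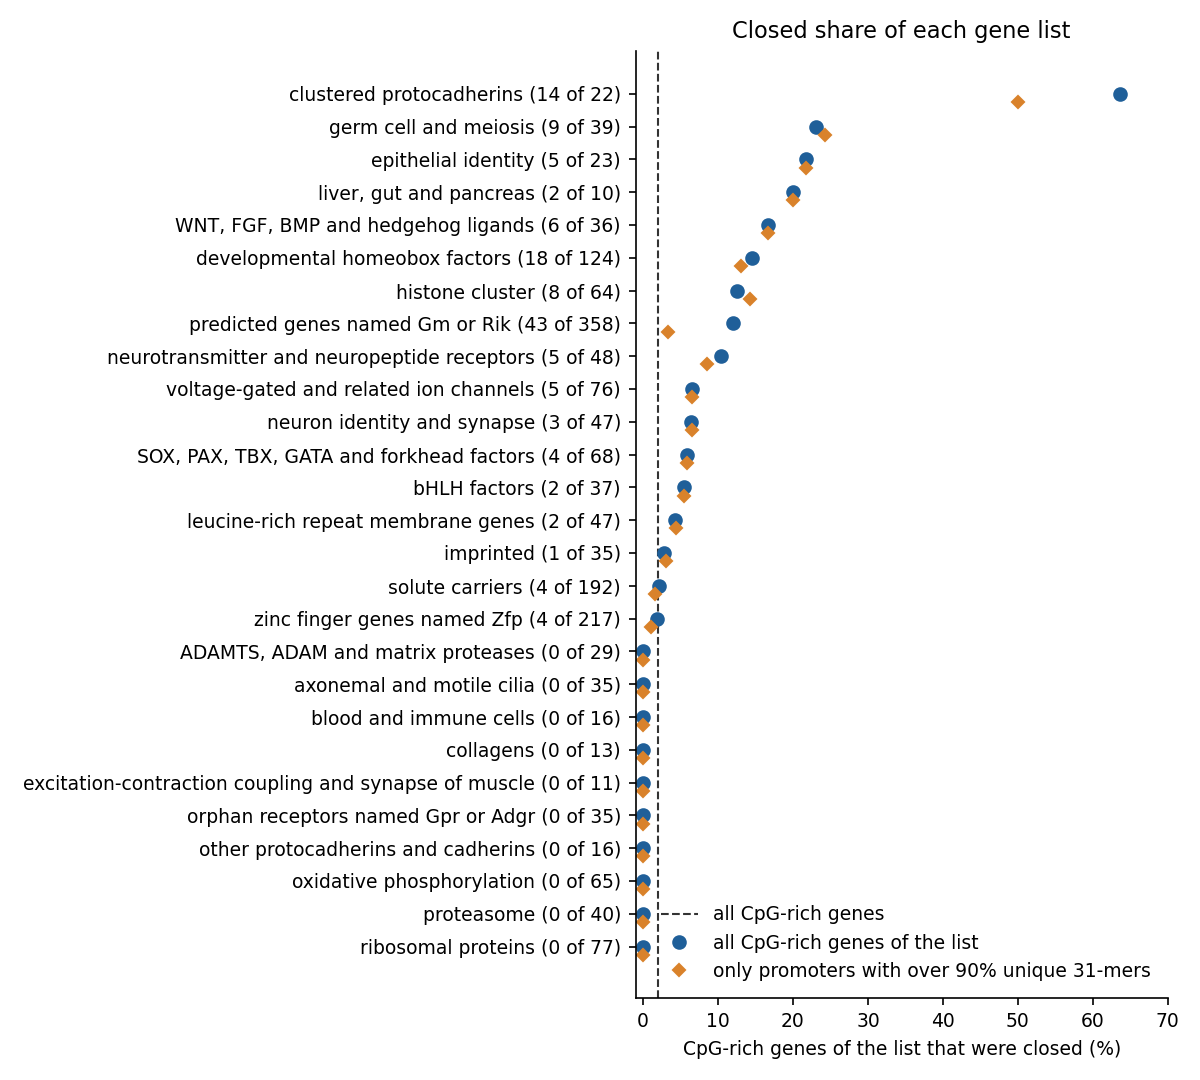
Share of the CpG-rich genes of each list with 10 or more of them that were closed in both libraries (x axis, %), for all promoters (circles) and for unique promoters where a list has at least 5 (diamonds); the dashed line is the 2.03% of all CpG-rich genes, and the numbers beside the names are closed genes of CpG-rich genes. Protocadherins lie at 63.6%, germ cell genes at 23.1% and the 10 lists at the bottom at 0.

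The letters of several core promoter elements had lower shares in unique closed promoters than in all CpG-rich ones. Exact matches on both strands were counted from 250 bp upstream to 50 bp downstream of the CpG-richest start. The GC box GGGCGG, bound by SP and KLF factors, was found in 58.3% of unique closed promoters, 39.8% of repeated ones and 72.9% of all CpG-rich promoters. For the ETS letters CCGGAAGT the shares were 2.16%, 3.61% and 8.44%, for the YY1 letters ATGGCGGC 1.44%, 3.61% and 5.77%, for the E2F letters GGCGGGA 17.3%, 4.82% and 25.6%, and for the CCAAT box, bound by NF-Y, 26.6%, 37.3% and 34.9%. GC box and E2F letters can overlap, since both contain GGCGG. The closed promoters also had fewer CpGs, a median of 65 in unique and 54 in repeated ones against 74 in open ones, and its part in these shares was not tested. Shares of the E-box CACGTG, bound by MAX and its partners, were 12.2%, 4.82% and 10.8%, and of CAGCTG, bound by myogenic factors, 15.8%, 10.8% and 13.3%. TATAAA, searched on the gene's strand from 40 to 20 bp upstream, was found in 2 closed genes (0.901%), Gsx2 and H2-Q1. It was found in 0.676% of all CpG-rich promoters. The CRE letters TGACGTCA were in 5 closed genes (2.25%, against 3.75% of all CpG-rich promoters). The ZBTB33 letters TCTCGCGA were in 1 (0.45%, against 2.25%). The NRF1 letters GCATGCGC were in 8 closed genes, all unique. That is 3.6% of all closed genes and 5.76% of the unique closed ones, against 5.68% of all CpG-rich promoters.

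**Figure D4:**
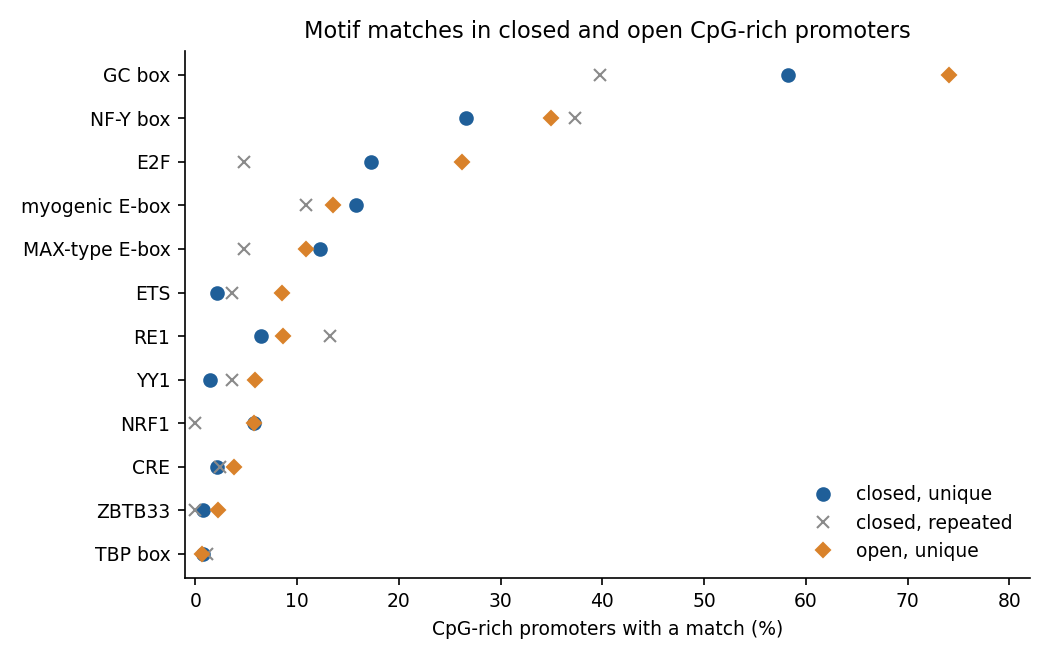
Share of CpG-rich promoters with at least 1 match to each motif (x axis, %), for unique closed promoters (circles), repeated closed promoters (crosses) and unique open promoters (diamonds). The GC box lies at 58.3% in unique closed promoters and at 74% in unique open ones, and for both E-boxes these 2 groups lie close together. The TBP box is TATAAA, the NF-Y box the CCAAT box, and the MAX-type and myogenic E-boxes are CACGTG and CAGCTG.

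Those 8 genes with NRF1 letters were Spo11, Slc25a31, Hormad1, Fkbp6, Mov10l1, Dkkl1, Neurod1 and Ovol1. 5 of the 9 closed genes of the germ cell list were among them, against 3 of the 23 genes of that list open in both libraries. CACGTG was found in 5 of the 9 and in 6 of the 23. In the Slc25a31 stretch printed above, the NRF1 letters are gcatgCGc. This pattern was singled out after its values were seen, and the genes are few.

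RE1 letters were about as frequent in closed promoters as in all CpG-rich ones. The element was searched as its 2 blocks CAGCACC and GGACAG, 2 bases apart, within 500 bp on either side of the start, on both strands and with up to 2 of the 13 fixed letters different. It was found in 20 of the 222 closed genes (9.01%), in 9 of the 139 unique ones (6.47%) and in 8.77% of all CpG-rich genes. No closed promoter held it without a mismatch, and 2 held it with 1. In Grin2c it lies at chr11:115267672-115267686, 443 bp upstream of the start, on the plus strand of the chromosome. In Tlx1 it lies at chr19:45151843-45151857, 374 bp downstream of the start, on the minus strand. Both are printed on the strand of the site with 3 bases on either side and the blocks in capitals.
Grin2c: tgcCAGCACCcaGGAGAGaca
Tlx1: aaaCAGCAGCcaGGACAGaaa
Among neuron identity genes, 0 of the 3 closed ones and 12 of the 38 open ones had such a match. Of the receptors 2 of the 5 closed and 8 of the 40 open had one.

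Around the missing promoter peak, many unique closed genes had other accessible sites. A distal peak was one centred more than 1000 bp from every annotated start, and a distal peak of replicate 1 was shared where a peak of replicate 2 overlapped it. Within 50 kb of the start, unique closed genes had a median of 3 shared distal peaks, repeated closed genes 0, open CpG-rich genes 2 and closed CpG-poor genes 1. 9.35% of the unique closed genes, 54.2% of the repeated, 15.6% of the open and 45.6% of the closed CpG-poor genes had none. The nearest peak of any kind lay at a median of 4616 bp in replicate 1 and 3603 bp in replicate 2 from unique closed genes, against 17187 and 15418 bp for closed CpG-poor genes. The closed CpG-poor genes were not split by uniqueness, and the part of this filter in the difference was not tested. Over all 222 closed CpG-rich genes the medians were 7654 and 6541 bp, and 26.1% had no shared distal peak within 50 kb. In 17 closed genes, 16 of them unique, a peak lay over 500 and up to 1000 bp from a start in both libraries, just outside the limit. Neighbouring genes can share a distal peak, so these counts are not independent of each other.

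Around the unique closed genes the share with a peak varied from bin to bin, with few genes in each. The bin of 250 bp with the highest sum of the shares of both libraries, singled out after its values were seen, lay from 3000 to 3250 bp upstream of the CpG-richest start. There 13 of the 139 genes had a peak in replicate 1 (9.35%) and 16 in replicate 2 (11.5%), against 2.92% and 3.72% of open CpG-rich genes. A bin farther upstream equalled this share in replicate 1, and another exceeded it in replicate 2. From 500 to 750 bp downstream the shares were 5.04% and 6.47%, against 35.7% and 39.9% of open CpG-rich genes. This bin adjoins the window whose peaks defined both groups, so the difference there is partly set by the selection.

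Wnt7b, Sfi1 and 4933428G20Rik had the most shared distal peaks, 13 each. The counts are of replicate 1 peaks, and at Wnt7b, 4933428G20Rik and Cntfr some of these overlapped the same peak of replicate 2. Near Wnt7b the strongest by mean rank lay 19862 bp upstream, with a cut density of 6.02 in replicate 1 (rank 93.9) and 4 in replicate 2 (rank 95.5). Olfr750 had 12, Gm12184 11, and BC107364 and Ppm1n 10 each. Hoxc8 had 9, the strongest 2986 bp upstream at densities of 6.29 (rank 94.4) and 4.5 (rank 96.5). Cntfr also had 9. Among the 10 genes with the most shared distal peaks, the strongest was 15937 bp upstream of Ppm1n, a phosphatase gene, at 8.82 (rank 97.4) and 5.66 (rank 98.1). These are the strongest of 9 to 13 peaks at each gene, and other distal peaks of the same genes ranked lower. Which gene a distal site acts on was not measured.

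Grouping the closed genes by role, a grouping made after the genes were known, gave 33 developmental transcription factors, 24 genes of neuronal function, 18 of the germ line, 14 protocadherins, 8 secreted signals and 4 of epithelial structure. Not all of the 222 genes were given a role. Only closed genes were grouped, so no share over all CpG-rich genes stands beside these counts. The median numbers of shared distal peaks within 50 kb in these groups were 3, 4, 1.5, 0, 2.5 and 4. Their median CpG ratios were 0.735, 0.771, 0.66, 0.721, 0.788 and 0.69 in the same order. The ranges of the groups overlapped widely, and the ratio is one of the measures that chose the genes. Some closed genes were accessible at the start of a transcript not annotated as protein-coding. Such a start was present in 88 of the 222 genes. In 7 of these, each library had a peak within 500 bp of one, not necessarily the same start. The same count was not made for open genes.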

How the data were processed

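The deposited lists of each library were used: accessibility peaks in a longer and a shorter version, stretches with an FDR (a q-value) of at most 0.05, and footprints. All are on mm10 and were called on 1 library, per the file listings. The signal of a peak is the authors' cut density, read only as a rank within its list. The deposited q-values served only to mark listed bases. The deposited footprints carry the constant 0.01, whose meaning is not stated. Aligner, caller and software versions of the authors: not given in the sources used here. Depth in reads is not known. The density steps are 0.00675 and 0.00333, a ratio of 2.03, so replicate 2 would be the deeper library if 1 step is 1 cut.

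Starts of protein-coding transcripts came from GENCODE vM21 and sequence from GRCm38.p6, the C57BL/6J reference, although 1 genome copy of these mice is CAST. The ratio was observed CpG times length over the product of C and G counts, and a peak had to touch the 500 bp on either side of a start. Uniqueness of 31-base words was counted over 65 assembled sequences. Overlaps were computed with Python 3.11.15, pandas 2.3.3, numba 0.67.0 and bedtools 2.31.1, checked on simulated data. No test was run. The 29 lists and 12 motifs, 7 entries of the lists not being among the autosomal genes used, and the genes themselves were chosen with earlier results of these data known. Genes were named by rule: the 12 highest ratios, the 10 with most shared distal peaks, up to 3 per list, those at the thresholds, the best RE1 matches, the 5 longest runs and up to 6 with listed FDR bases in both libraries. Genes named beyond the rule, such as the further members of a list, the genes with NRF1 letters and those named by role, were chosen after their values were seen. Some genes and sequences that the rule names are not reported here.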

Additional observations from a re-analysis of the deposited data

How the results depend on the processing

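The number of closed CpG-rich genes and their share followed the definition. They were 366 genes (2.94%) at a ratio of 0.5 or more and 86 (1.23%) at 0.75 or more, 351 (3.21%) with 200 bp on either side of a start, 482 (4.41%) with the shorter peak lists and 139 (1.36%) with unique promoters alone. A ratio over 250 bp on either side gave a share of 2.59%, and a promoter of 2000 bp on either side 1.499%. Leaving out 1 library gave 270 to 344 genes and 2.47% to 3.14%, the higher values with replicate 1 alone. Limits of 1000 bp, a GC share of 0.5, the most upstream or the CpG-richest start alone, and the absence of any listed FDR base moved the count by less than 1.5 times. Under the 7 alternatives run, 12 to 20 lists stood above 1.5 times the overall share, against 14. RE1 letters with at most 1 mismatch were in 0.901% of closed genes. The median number of shared distal peaks over all 222 closed genes was 2 within 50 kb, 0 within 10 kb and 5 within 100 kb, and 2.5 to 4 distal peaks within 50 kb when 1 library was used. For the unique closed genes it was 3, 1 and 7. At a ratio of 0.75 or more, 27.9% of the closed genes were repeated. For single lists, 130 values were the same and 73 moved. No paired analysis was possible because there is 1 group. Depth in reads is not known, and with 2 libraries no interval between animals can be given.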
